A study of Mus musculus with 4 samples.

Results

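The kainate receptors are a family of glutamate-gated channels, described here along with the Neto proteins that attach to them. The members were the 5 pore-forming subunit genes Grik1 to Grik5 and the auxiliary subunit genes Neto1 and Neto2. Their rows in the expression table were found by gene symbol, as those whose platform annotation names exactly that gene. All 7 genes were found, each with a single row, among 19938 genes with a row of their own. The study gave ICR mice ketamine, which blocks NMDA receptors, or normal saline by daily intraperitoneal injection. The ketamine dose was 30 mg/kg, below the anesthetic range, and the methods describe injections for 3 months from an age of about 1 month. The RNA, labelled as prefrontal cortex, was read on Affymetrix Mouse Gene 1.0 ST arrays, 2 per group, which measure each transcript through probes along its length. No genetic alteration is labelled for either group. The sample labels give the mice as female, while the methods describe male mice.

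The treatment label is itself contradictory. The titles name 2 arrays saline and 2 ketamine, and the source field names the opposite treatment for each of the same arrays. The groups are called here by their titles, and every difference is the mean of the arrays titled ketamine minus the mean of those titled saline. By the source field every sign would be turned. The values are on the log2 scale, as produced by RMA, where a difference of 1 means a ratio of 2. The 4 arrays had medians from 5.90 to 6.04 over the 21789 tested rows.

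Kainate receptors are tetramers. The subunits encoded by Grik1, Grik2 and Grik3 (GluK1 to GluK3) can form channels on their own, whereas those encoded by Grik4 and Grik5 (GluK4 and GluK5) bind kainate with high affinity but need a partner of the first kind. Neto1 and Neto2 are single-pass membrane proteins with CUB domains that slow the closing of these channels and change their affinity for agonists. In the brain Grik2 and Grik5 are known from cerebellar granule cells as well as from forebrain, Grik4 from hippocampal CA3 and Purkinje cells, Neto1 from forebrain and hippocampus, and Neto2 from many regions including cerebellar granule cells.

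Marker genes on the arrays titled ketamine went against the labelled tissue. In the counts here, higher and lower mean called at an adjusted p under 0.05 from limma, a moderated test across all rows. Genes that did not pass are in neither count, whatever their direction. Over all genes, 4632 of 19938 were called higher and 1977 lower. Of 12 markers of cerebellar granule cells, 11 were higher on the arrays titled ketamine and 0 lower, with a median difference of 3.57. Of 10 measured Purkinje cell markers 8 were higher and 1 lower. The summed linear signal of the granule cell list was 877 to 1176 on the arrays titled saline and 13009 to 13899 on those titled ketamine. Of 10 measured markers of forebrain projection neurons, 9 were lower and 0 higher, with a summed signal of 5446 to 5509 against 1509 to 1515. Tbr1 and Neurod6, which mark cortical neurons, lay on both arrays titled ketamine below the 95th percentile of olfactory receptor rows, which stand for low signal. On the arrays titled saline none of the 10 did. There the granule cell subunit gene Gabra6 lay below that level on array 2, at 3.28, but not on array 1, at 6.73. Microglial markers were called lower for 7 of 7 genes and choroid plexus markers higher for 5 of 6. Oligodendrocyte markers were called lower for 1 of 7 and higher for 0, and 6 did not pass. Of 11 measured markers of forebrain interneurons, 8 were lower and 1 higher, with a median difference of -1.07. Astrocyte markers were higher for 3 and lower for 1 of 7. Markers of hippocampal CA3 and dentate cells, a list that holds Grik4 itself, were called higher for 3 and lower for 2 of 8, and 3 did not pass. Of these, Calb2 is also the gene counted higher among the interneuron markers, and C1ql2 recurs among the kainate receptor partners below. Title, treatment and the region that these markers describe cannot be told apart on 4 arrays, and their part in the results below was not tested. In whole tissue, fewer cells of a type and less RNA per cell cannot be told apart either.

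The members moved in both directions, and the largest difference was in an auxiliary subunit. Grik1, Grik2 and Neto2 were higher on the arrays titled ketamine and Grik3, Grik5 and Neto1 were lower, each at an adjusted p under 0.05 from limma, a moderated test across all rows with Benjamini-Hochberg adjustment. Grik4 did not pass. The count of 3 higher and 3 lower of 7 stands beside 23.4% of all tested rows called higher and 9.71% called lower. In all 7 genes the 2 groups did not overlap, 3 of them higher and 4 lower, beside 48.4% of all rows that lay higher without overlap and 21.5% that lay lower. Every member read above the olfactory receptor level (at most 4.56) on every array, with values of 6.26 or more.

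**Figure D1:**
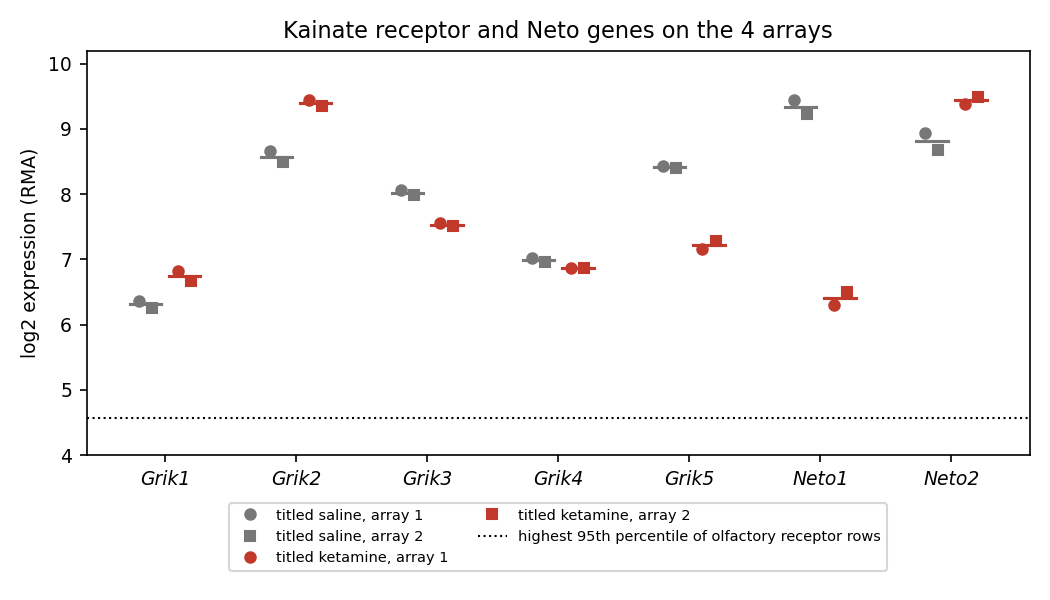
Log2 expression (y axis) of the 7 genes (x axis) in each sample, with grey marking the title saline, red the title ketamine, circles array 1, squares array 2 and bars the group means. The dotted line is the highest 95th percentile of olfactory receptor rows, 4.56. The groups do not overlap for any gene, and the widest gap is that of Neto1, from 9.23 down to 6.51. Heights are not comparable between genes, because each gene has its own probes.

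Among the subunits that can form channels alone, Grik2 had the largest difference. Its log2 value was 8.67 and 8.49 on the arrays titled saline and 9.45 and 9.35 on those titled ketamine. Both arrays titled ketamine were therefore above both others, with a mean of 9.40 ± 0.0662 (SD, n = 2) against 8.58 ± 0.124. This was a difference of 0.82 with a standard error of 0.116 (adjusted p = 0.00224 from limma), a ratio of 1.77.

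Grik1 encodes GluK1, which is known from interneurons and Purkinje cells. It read 6.37 and 6.26 on the arrays titled saline and 6.82 and 6.66 on those titled ketamine. The arrays titled ketamine were both higher. The difference of 0.43 had a standard error of 0.114 (adjusted p = 0.0272 from limma). After quantile normalization it was 0.26 (adjusted p = 0.116) and with the array medians set equal 0.29 (adjusted p = 0.102), and over all rows of the table the adjusted p was 0.0689, so that the call on Grik1 depends on the scaling and on the rows tested.

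Grik3, which encodes the low-sensitivity subunit GluK3, went the other way. It read 8.06 and 7.99 on the arrays titled saline and 7.55 and 7.51 on those titled ketamine. The spread within each group was small, with SDs of 0.0479 and 0.0289. Its difference of -0.49 had a standard error of 0.105 (adjusted p = 0.0119 from limma), which is a ratio of 0.711, and was -0.64 after quantile normalization.

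Of the genes for high-affinity subunits, Grik5 passed and Grik4 did not, and the difference between them was not tested. Grik5 read 8.43 and 8.41 on the arrays titled saline and 7.16 and 7.28 on those titled ketamine. It was lower on both arrays titled ketamine by more than any difference within a group, with means of 8.42 ± 0.0167 (SD, n = 2) and 7.22 ± 0.0874. The difference of -1.20 had a standard error of 0.108 (adjusted p = 0.000331 from limma) and is a ratio of 0.436. Its size exceeded that of 95.4% of all rows.

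Grik4 read 7.03 and 6.96 on the arrays titled saline and 6.87 and 6.87 on those titled ketamine. The arrays titled ketamine were slightly lower without overlap, and the difference of -0.12 did not pass (adjusted p = 0.396 from limma). Its 95% interval ran from -0.37 to 0.12, which leaves room for a modest change in either direction. After quantile normalization the difference was -0.28 (adjusted p = 0.0704).

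GluK5 needs a partner such as GluK2, and the genes for these subunits moved apart. Within an array, the Grik5 value minus the Grik2 value was -0.24 and -0.083 on the arrays titled saline and -2.29 and -2.07 on those titled ketamine. The change of -2.02 on the log2 scale is the quantity of interest, since the level of this difference depends on the probes. The comparison was chosen after the values had been seen, and an exact two-sided permutation test over the arrays gave p = 0.333, the smallest p that 2 arrays against 2 allow.

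The auxiliary subunits had opposite signs. Neto1 read 9.44 and 9.23 on the arrays titled saline and 6.30 and 6.51 on those titled ketamine. The arrays within each group differed by 0.21, far less than the gap between the groups. The means were 9.33 ± 0.148 (SD, n = 2) and 6.40 ± 0.149, a difference of -2.93 (standard error 0.130, adjusted p = 2.71e-05 from limma) and a ratio of 0.131. Its size exceeded that of 99.7% of all rows.

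Neto2 read 8.94 and 8.68 on the arrays titled saline and 9.39 and 9.50 on those titled ketamine. Its arrays titled saline differed by 0.26, the widest spread within a group among the members. The difference of 0.63 had a standard error of 0.127 (adjusted p = 0.00925 from limma) and is a ratio of 1.55. It was 0.52 after quantile normalization and 0.50 after centring on the median.

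The within-array value of Neto2 minus Neto1 was -0.50 and -0.54 on the arrays titled saline and 3.09 and 2.99 on those titled ketamine. The balance between the 2 auxiliary genes thus changed by 3.56 on the log2 scale, from a mean of -0.52 ± 0.0325 (SD, n = 2) to 3.04 ± 0.0707. With any 1 array left out the change was 3.51 to 3.61, and after quantile normalization 3.59. The exact two-sided permutation test again gave its smallest possible p of 0.333.

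**Figure D2:**
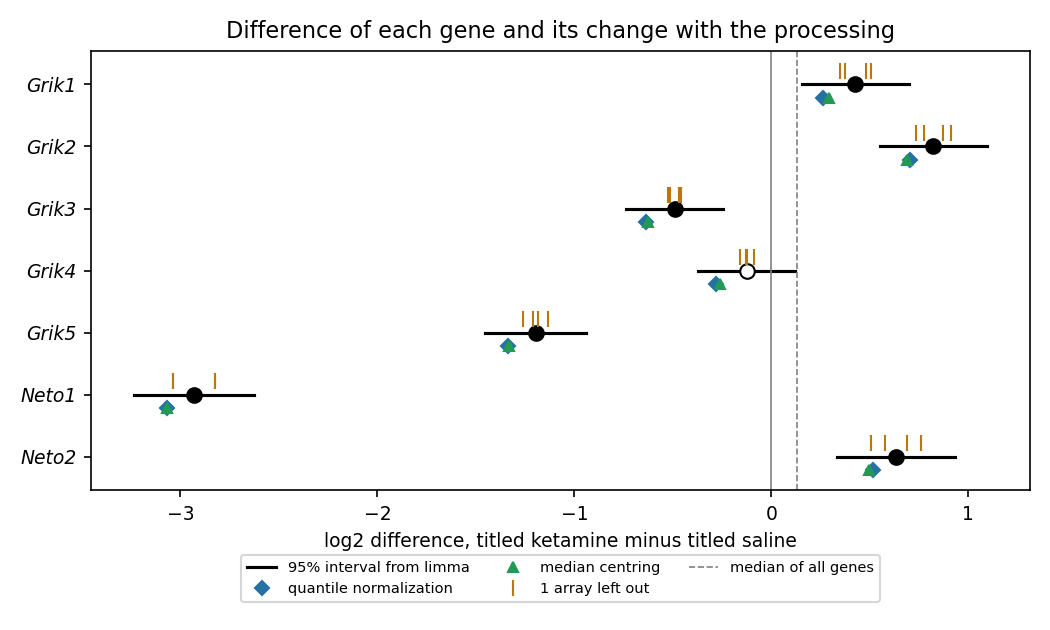
Log2 difference between the arrays titled ketamine and those titled saline (x axis) for each of the 7 genes (y axis). Circles are the differences of group means, filled at an adjusted p under 0.05 from limma, with 95% intervals. Diamonds and triangles give the value after quantile normalization and after median centring, ticks the values with 1 array left out, and the dashed line the median of all genes, 0.13. Every alternative value of a gene lies on the same side of 0, Neto1 is farthest from 0 at -2.93, and the interval of Grik4 alone crosses 0.

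The median difference of all genes was 0.13 and not 0, so that values close to it depend on the scaling between arrays. As deposited, 5109 rows were called higher and 2115 lower, against 2923 and 4049 after quantile normalization and 3210 and 3213 after median centring. Relative to that median, Grik2, Neto2 and Grik1 remained higher and the other members lower. The directions of all 7 genes were the same under each alternative run. The calls depended on which arrays entered the fit. Without array 1 or array 2 titled ketamine 0 members and 0 rows of the table passed in limma, with 5 members and 5974 or 6461 rows at an unadjusted p under 0.05. The differences themselves stayed close to those from all arrays, with -2.83 and -3.04 for Neto1, -1.14 and -1.26 for Grik5 and 0.78 and 0.87 for Grik2. Without titled saline array 1 the calls on Grik1 and Grik3 were lost (adjusted p = 0.0670 and 0.0553 from limma), and without titled saline array 2 those on Grik1 and Neto2 (adjusted p = 0.110 and 0.0561 from limma). Grik2, Grik5 and Neto1 passed with either array titled saline left out.

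The rows whose pattern over the 4 arrays was most like that of each called member were found by the root mean square distance between values centred on their own mean, among named rows at or above the median level. Few rows resembled Neto1. Only 3 lay within 0.1 log2 units of it, namely Tafa1 (distance 0.0875), Kcnf1 (0.0922) and Mlip (0.0927). Grik5 had 99 rows within that distance, the nearest being Sorbs2, Unc5d and Chrna4, at 0.0102 to 0.0177. For the other called members such rows were common, with 433 for Grik3, 486 for Grik2, 623 for Neto2 and 1616 for Grik1. Nearest to Grik2 was Mtss2, to Neto2 Sec24a, to Grik3 Cmtm4 and to Grik1 Atp6v1g1, at distances of 0.00878, 0.0130, 0.00450 and 0.00962. A pattern over 4 arrays in 2 groups is largely the size of 1 difference, so that these likenesses are a description only.

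Promoters are printed for Grik2 and Neto2, called higher, and Grik5, called lower, so that members that moved together or apart can be compared. RefSeq promoter entries (GRCm38.p6) were read for 5 of the 7 members. None was found for Grik1. Neto1, the member with the largest difference, was left out of the reading, so its promoter is not compared here. Each line gives the 250 bases before an annotated start, 5′ to 3′ on the minus strand, with capitals for the GC box GGGCGG on either strand. The windows are chr10:49788755-49789004 for Grik2, chr8:85700925-85701174 for Neto2 and chr7:25072370-25072619 for Grik5. The windows of Grik2 and Grik5 lie wholly inside the span of their RefSeq genes, and that of Neto2 overlaps its gene span by 28 bases. The starts of Grik2 and Grik5 lie 1407 and 3325 bases from the 5′ edge of the gene span, against 28 for Neto2. The windows thus do not hold the same position relative to their genes. A second Neto2 start was also read, with its window at chr8:85691010-85691259 inside the gene, and is not printed.
Grik2: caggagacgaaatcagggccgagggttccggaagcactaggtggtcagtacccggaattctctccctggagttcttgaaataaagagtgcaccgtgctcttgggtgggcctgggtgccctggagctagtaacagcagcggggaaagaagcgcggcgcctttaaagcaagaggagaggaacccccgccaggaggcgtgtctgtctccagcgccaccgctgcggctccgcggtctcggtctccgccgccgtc
Neto2: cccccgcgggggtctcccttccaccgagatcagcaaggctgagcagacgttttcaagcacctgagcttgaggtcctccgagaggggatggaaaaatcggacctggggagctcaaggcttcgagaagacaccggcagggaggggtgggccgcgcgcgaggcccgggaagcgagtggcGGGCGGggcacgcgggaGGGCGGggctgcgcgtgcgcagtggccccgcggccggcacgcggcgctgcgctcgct
Grik5: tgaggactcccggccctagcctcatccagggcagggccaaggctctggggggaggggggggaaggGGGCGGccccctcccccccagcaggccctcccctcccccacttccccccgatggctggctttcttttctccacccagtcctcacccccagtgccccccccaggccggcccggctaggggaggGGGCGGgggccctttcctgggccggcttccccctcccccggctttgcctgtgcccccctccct

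The GC box occurred 0 times in the Grik2 window and 2 times in each of the other 2, and 32.7% of 32851 windows of the same length in the table held it. The Grik3 window held 6. The printed Neto2 window had an E-box (CANNTG), as did 66.2% of all windows, while Grik2 and Grik5 had 0. The cyclic AMP response element TGACGTCA was in none of the 3 and in 1.55% of all windows. The dinucleotide CG had a median count of 6 over all windows. It occurred 20 times in the Grik2 window, 30 times in the printed window of Neto2 and 8 times in that of Grik5. The window of Grik3, also called lower, held 42 CG and 1 E-box, and that of Grik4 36 CG and 1 GC box. Both windows lie wholly inside their gene spans, with starts 437 and 629 bases from the 5′ edge. The window of the second Neto2 start held 0 GC boxes, 3 E-boxes and 0 CG, so that the Neto2 counts depend on the start. These matches describe the letters of the windows only, and the arrays did not measure promoter activity or binding.

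The AMPA receptors, the channels for fast excitation, and their auxiliary proteins also held genes called in both directions. So did the genes at large, with 4632 of 19938 called higher and 1977 lower. These counts also stand beside those of the lists that follow. Of 4 AMPA subunits 1 was called higher and 2 lower, with a median difference of -0.21 beside 0.13 over all genes. Gria4 was higher by 1.87, and Gria2 and Gria3 had differences of -0.80 and -0.54. Gria1 was at 0.12 (adjusted p = 0.440 from limma) and turned to -0.011 after median centring. Of 10 AMPA receptor auxiliary genes 2 were higher and 7 lower, with a median of -0.65. Opposite signs also occurred among the TARP genes, which encode the transmembrane AMPA receptor regulatory proteins, where Cacng3 was at -2.74 and Cacng2, encoding stargazin, at 0.74. Cnih3 and Cacng7 were at -2.79 and 0.67.

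The NMDA receptor subunits, with 6 measured, counted 1 higher and 2 lower. Grin2b, a subunit of forebrain synapses, had a difference of -3.34 and Grin2a of -1.07, while Grin2c, known from mature cerebellar granule cells, was at 1.75 and Grin2d at 0.0044. The delta receptor gene Grid1 was at -0.86. Grin1 was not analysed here. The kainate subunits spanned -1.20 to 0.82, a range inside that of the NMDA subunits, and no test of the families against each other was run.

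Of 17 measured partners of kainate receptors in scaffolding and trafficking, 1 was higher, 6 lower and 10 did not pass, with a median of -0.19. Among those lower were the secreted C1q-like proteins of synapses C1ql3 at -1.32 and C1ql2 at -0.65, and the scaffold genes Grip1 at -0.92 and Dlg4, encoding PSD-95, at -0.73. Cul3, a ubiquitin ligase scaffold, was higher by 0.36 (adjusted p = 0.0444 from limma), and Sdcbp, encoding syntenin, was at 0.36 (adjusted p = 0.0513 from limma). Pick1, encoding a PDZ protein of glutamate receptors, was at 0.054 (adjusted p = 0.724 from limma) and turned to -0.11 after quantile normalization. With either of the other scalings the call on Cul3 was lost (adjusted p = 0.0867 after quantile normalization and 0.187 after median centring, from limma), and 0 genes of the list were higher and 8 lower.

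Of 12 measured genes for modification of the receptors and editing of their RNA, 2 were higher, 5 lower and 5 did not pass, again with a median of -0.19. Adarb1, the adenosine deaminase that edits the pore codon of Grik2, read 8.61 and 8.56 on the arrays titled saline and 8.95 and 8.90 on those titled ketamine. It was higher by 0.34 (adjusted p = 0.0454 from limma). After quantile normalization this was 0.21 (adjusted p = 0.160 from limma) and after median centring 0.20 (adjusted p = 0.215 from limma), so that its call depends on the scaling. Editing itself was not measured. Among the others, Senp1, a SUMO protease, was higher by 0.99, while Pias3, a SUMO ligase, was at 0.38 (adjusted p = 0.0585 from limma). Of those lower, Camk2a, a calcium-dependent kinase of forebrain synapses, was at -3.50 and the protein kinase C gene Prkca at -0.96.

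**Figure D3:**
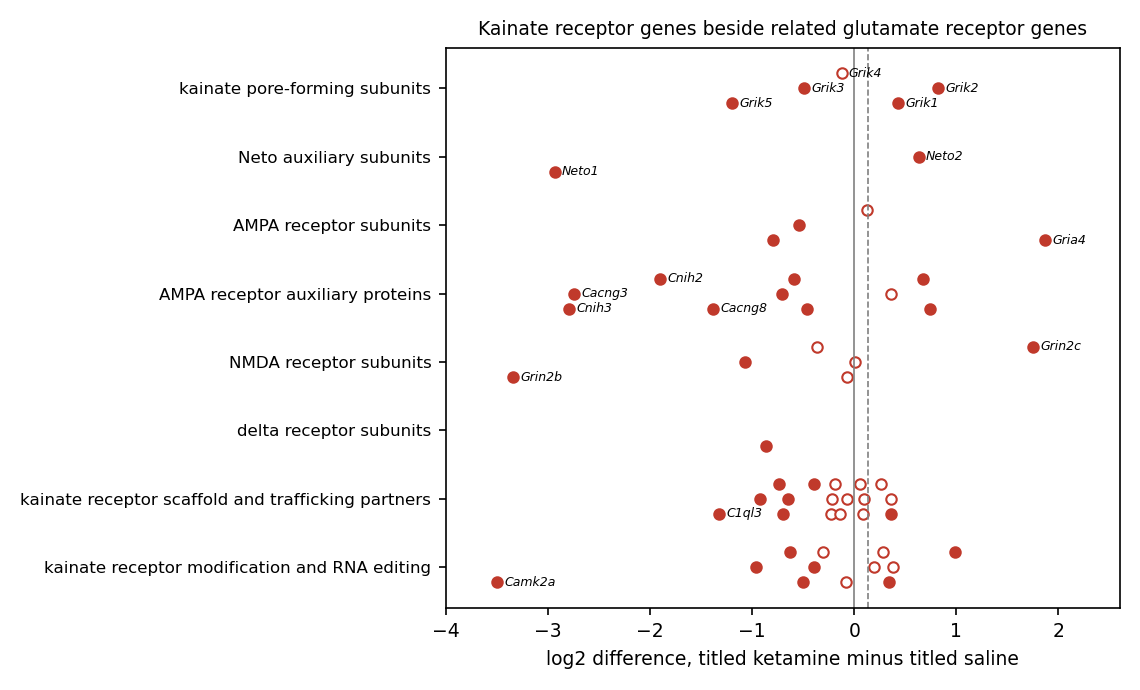
Log2 difference between the arrays titled ketamine and those titled saline (x axis) for the measured genes of 8 lists of glutamate receptor genes and their partners (y axis). Points are genes, filled at an adjusted p under 0.05 from limma and named where it is a member or differs by more than 1.3, and points are spread vertically only for legibility. The dashed line is the median of all genes, 0.13. Neto1 at -2.93 lies in the range of Cnih3, Cacng3 and Grin2b, and Grik2 at 0.82 is the largest difference upward among the kainate subunits.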

How the data were processed

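RNA of 4 samples was measured on 1-colour arrays, 2 per title. The log2 values were deposited by the authors after RMA (background correction, normalization between arrays and 1 value per transcript cluster) in Affymetrix Expression Console. Neither its version nor the genome build is given in the sources used here. Of 35556 rows, 21789 carried exactly 1 gene symbol in the platform annotation and were tested, 1621 carried several and 12146 none. Groups followed the sample titles. The methods name no test for the arrays, so limma (version 3.58.1) in R (version 4.3.3) was used, by lmFit and eBayes without trend or robust options, with Benjamini-Hochberg adjustment over all tested rows and calls at an adjusted p of 0.05. It was also tested on simulated data, in which far fewer rows were changed than were called here. A gene with several rows in a list was represented by the row with the highest mean.

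The members and gene lists were chosen with earlier results of these data known. All 7 members were named, and from each related list the 2 genes with the largest differences either way. C1ql2, Dlg4, Pick1, Adarb1, Neurod6 and the Grik5 minus Grik2 comparison were singled out after their values were seen, and so was the recount of the lists under the other scalings. Cell type lists are given by counts, with summed levels for the granule cell and projection neuron lists and few genes named. In the search for similar rows, predicted genes were passed over. The series' own text speaks of 2 mice per treatment, and p-values cover the spread among these 4 samples only. The number of arrays limits the precision. RMA compresses low values, and a real shift of most genes in 1 direction would be partly removed. Isoforms and RNA editing cannot be read from 1 value per gene. Alternatives covered scaling, dim rows, the rows tested, moderation, a 1.3-fold limit, omission of each array, and a replicate block.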

Additional observations from a re-analysis of the deposited data

How the results depend on the processing

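The directions of the 7 genes were the same under each alternative, and so was the side of the threshold in 51 comparisons of a single gene under an alternative, while 19 lost the call. All but 3 of these came from leaving out an array. The spread within groups then rests on the group that keeps 2 arrays, and the lone array is assumed to vary like it. The 3 concern Grik1, under quantile normalization, under median centring and over all rows of the table. With 1 array left out, 0 to 2 members passed as higher and 0 to 3 as lower, beside 3 and 3 with all arrays, and 0 to 3171 rows passed as higher and 0 to 1403 as lower. The rows called higher and lower numbered 2923 and 4049 after quantile normalization and 3210 and 3213 after median centring, beside 5109 and 2115. By a 1.3-fold limit with no test the members again counted 3 and 3, beside 5286 higher and 2151 lower of 21789 rows. The change of Neto2 against Neto1 was 3.51 to 3.61 with 1 array left out. With the replicate number as a block, 5896 rows were higher and 2354 lower and members 3 and 3. The deviations of same-numbered arrays correlated at 0.034 over rows, which cannot show whether these arrays shared more than a number. No member has another row to try. All members read above the olfactory receptor level, so low signal limits the comparison markers more than the members.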
